A study of Mus musculus with 16 samples.

Results

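Transcripts of 37 lysosomal and vacuolar-type proton pump (V-ATPase) genes were followed in differentiated bone marrow stromal cells (BMSCs) lacking DMP1, osteocyte-produced FGF23, or both. The genes were chosen by name, with earlier results of these data known. They encode lysosomal membrane proteins, proteases, glycosidases, lipid-handling proteins, the regulator Tfeb, the autophagy receptor Sqstm1 and V-ATPase subunits. All 37 were among the 45796 genes of the count table, and all 37 passed the filter on low counts, which left 16430 genes for testing. Total RNA was sequenced from 16 libraries, 4 from each of 4 genotypes: the compound mutant Dmp1KO/Fgf23cKO, Dmp1KO, Fgf23cKO and WT. DMP1 is an extracellular matrix protein of bone, and its loss causes a hereditary rickets with an excess of the phosphate-lowering hormone FGF23, so the comparisons ask which changes follow loss of DMP1, loss of bone FGF23, or their combination.

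Dmp1KO mice carried a global Dmp1 deletion. Fgf23cKO mice carried Fgf23 alleles with a floxed exon 1, cut by a Cre transgene under the Dmp1 promoter, which is active in mature osteoblasts and osteocytes. Per the study's methods, WT and Dmp1KO littermates of this cross carried the floxed Fgf23 alleles without Cre, so the floxed alleles were shared and Cre was present only in the Fgf23-deleted genotypes. Animals were 12 weeks old, on a C57BL/6J background, and the primary cells were differentiated until day 21 in medium to which ascorbic acid (50 µg/ml) and the phosphate donor beta-glycerophosphate (10 mM) were added. The study names fewer mice than libraries per genotype, so some libraries may share an animal, and the p-values below measure the spread between libraries, which may in part be technical.

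Lysosomes are acidic organelles that break down protein, glycan, glycosaminoglycan, lipid and cargo delivered by endocytosis and autophagy. The V-ATPase pumps protons across their membrane, most of their soluble enzymes reach them by mannose 6-phosphate tagging, and the transcription factor TFEB binds an E-box-type element (the CLEAR element) at the promoters of many lysosomal genes. In bone, lysosomal enzymes and V-ATPase are best known for matrix resorption by osteoclasts. Macrophages, which persist in marrow cultures, are rich in the same transcripts.

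The promoter sequences are shown first, because shared E-boxes are what many lysosomal genes are known to have in common. RefSeq promoter windows (GRCm38.p6, 250 bases before to 50 bases after an annotated start, which is not always a gene's outermost one) were found for 31 of the 37 members, in 35 windows. Atp6v1h, Ctsh, Ctsb, Asah1, Npc1 and Atp6v1b2 had none in the table. The core E-box CACGTG was searched on both strands. It is its own reverse complement, and it lies within the longer TCACGTG, which was searched with its reverse complement CACGTGA. The core was found in 10 of 31 members (10 of 35 windows, 28.6%), against 7.15% of all 32851 windows. TCACGTG was found in 9 members (25.7% of their windows), against 3.77% of all windows. A match is a description of letters, not evidence of binding. The printed examples are 4 members with the element and 2 members without it in the window that changed clearly between genotypes (Sqstm1 and Idua), each given as 100 bases ending at the base before the start, 5′ to 3′ on the gene's strand, with each match in capitals.
Lamp1: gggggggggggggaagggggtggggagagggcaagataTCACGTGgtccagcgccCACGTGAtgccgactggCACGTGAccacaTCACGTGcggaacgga
Mcoln1: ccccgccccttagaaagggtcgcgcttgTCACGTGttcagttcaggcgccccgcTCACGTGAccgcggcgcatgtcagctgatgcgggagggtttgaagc
Ctsd: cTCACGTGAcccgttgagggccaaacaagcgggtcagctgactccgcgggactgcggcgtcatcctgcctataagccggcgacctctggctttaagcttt
Glb1: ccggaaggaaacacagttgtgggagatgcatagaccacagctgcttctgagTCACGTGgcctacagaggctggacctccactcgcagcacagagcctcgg
Sqstm1: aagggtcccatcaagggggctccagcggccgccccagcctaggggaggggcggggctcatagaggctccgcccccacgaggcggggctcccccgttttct
Idua: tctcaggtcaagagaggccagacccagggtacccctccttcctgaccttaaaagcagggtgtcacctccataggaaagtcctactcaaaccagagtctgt

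These stretches lie at chr8:13159061-13159160 (Lamp1, plus strand), chr8:3500419-3500518 (Mcoln1, plus), chr7:142387828-142387927 (Ctsd, minus), chr9:114400978-114401077 (Glb1, plus), chr11:50210821-50210920 (Sqstm1, minus) and chr5:108660231-108660330 (Idua, plus). Lamp1 held 4 matches within this stretch, Mcoln1 held 2, and Ctsd and Glb1 held 1 each. Of these 4, only Glb1 passed the test against WT in any mutant, falling in Dmp1KO cultures as described below. The windows of Sqstm1, Cd63, Ctsz, Idua and Ids held no core E-box at all, but only 10 of the 31 members with a window held one. Atp6v1h, Atp6v1b2 and Asah1, which also changed, had no window. Whether changed members held the element more or less often than others was not tested. Ctsl, which changed, held a core E-box 236 bases before its start without the flanking letter of the longer form.

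**Figure D1:**
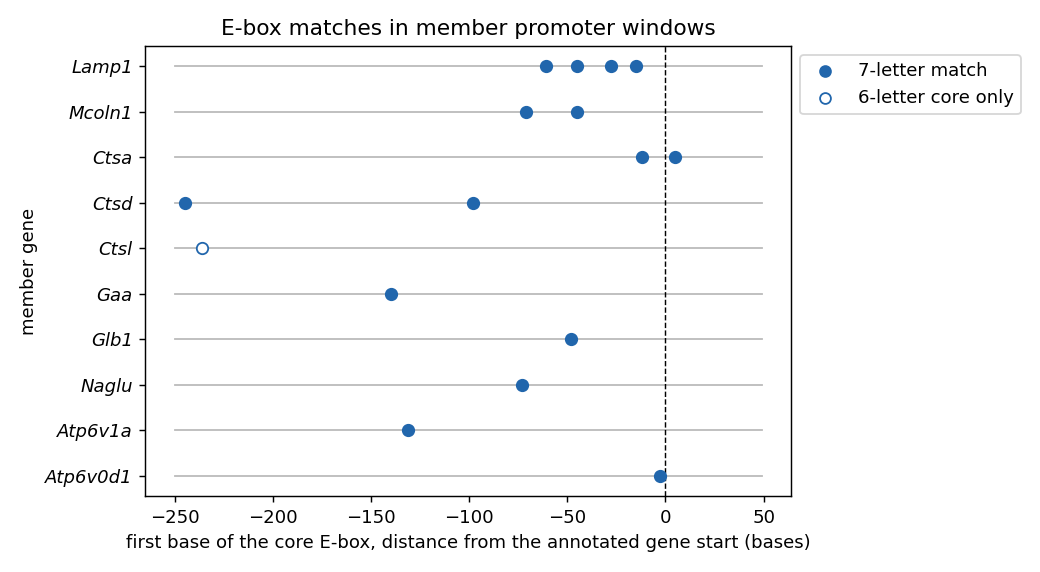
Positions of core E-boxes in the promoter windows of the 10 members that held any, as distance in bases from the annotated start (dashed line at 0; grey lines span each window). Filled circles are matches to the longer 7-letter form and the open circle is a core match only. Lamp1 holds 4 matches between 61 and 15 bases before its start, and Ctsl only the core match.

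Library totals were 61.9 to 79.5 M counts, and the 37 members took 1.58% to 2.53% of them. The targeted genes followed the labels. Fgf23 was at 0.029 to 0.0996 CPM (counts per M library counts, scaled for composition) in Dmp1KO/Fgf23cKO and 0.0128 to 0.0553 CPM in Fgf23cKO cultures, at 1.63 to 6.19 CPM in Dmp1KO and at 0.633 to 1.08 CPM in WT cultures. Dmp1 was at 41.2 to 95.9 CPM in Dmp1KO/Fgf23cKO and 83 to 109 CPM in Dmp1KO cultures, against 529 to 1396 CPM in Fgf23cKO and 329 to 784 CPM in WT cultures. The cultures expressed the osteoblast markers Col1a1 and Bglap (osteocalcin) but also the macrophage markers Lyz2, Csf1r and Cd68. Dmp1KO/Fgf23cKO libraries 1 and 2 lay with WT, and libraries 3 and 4 with Dmp1KO, on the first principal component of all genes (38.19% of the variance). Dmp1KO library 1 and Fgf23cKO library 1 had the highest values of their genotype for most members. In bulk cultures, fewer cells of a type and less RNA per cell cannot be told apart. Results that rest on these libraries are given with and without them.

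Per kilobase of merged exon (GENCODE vM21), the order of the members was much the same in every genotype. Ctsd, the aspartic protease cathepsin D, was the highest, at 2141 ± 204 CPM per kb in Dmp1KO/Fgf23cKO, 1860 ± 458 in Dmp1KO, 1932 ± 352 in Fgf23cKO and 1718 ± 97 CPM per kb in WT cultures (SD, n = 4 each). Psap, the precursor of the saposin activators, came second at 1096, 952, 1032 and 876 CPM per kb in the same order of genotypes, followed by the cysteine protease gene Ctsb and by Lamp1. Tfeb was the lowest of the 37 in all 4 genotypes, at 3.74 CPM per kb in Dmp1KO/Fgf23cKO, 2.95 in Dmp1KO, 4.07 in Fgf23cKO and 3.48 CPM per kb in WT cultures. The ranges of neighbouring members in the middle of this order often overlapped. Merged exons include those of every annotated transcript, which can overstate the length of the expressed one, so the order between genes is approximate.

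Against WT, 13 of the 37 members passed the test (edgeR's quasi-likelihood test, Benjamini-Hochberg adjusted p under 0.05 over all tested genes) in at least 1 mutant and 24 in none. In Dmp1KO cultures 3 members rose (8.11%, against 18% of all tested genes that rose) and 6 fell (16.2%, against 15.8% of all). In Fgf23cKO cultures 7 rose (18.9%, against 6.68% of all) and 1 fell (2.7%, against 4.72%). In Dmp1KO/Fgf23cKO cultures 4 rose (10.8%, against 7.72%) and 1 fell (2.7%, against 3.63%). Sqstm1, Cd63 and Ctsl rose in all 3 mutants. The 3 comparisons share the WT libraries. The members' median log2 fold change was -0.14 in Dmp1KO (all genes -0.02), 0.09 in Fgf23cKO (all genes -0.01) and 0.04 in Dmp1KO/Fgf23cKO cultures (all genes -0.002). Their median absolute log2 fold change was smaller than that of all genes in each, at 0.17 against 0.34, 0.15 against 0.22 and 0.11 against 0.23.

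**Figure D2:**
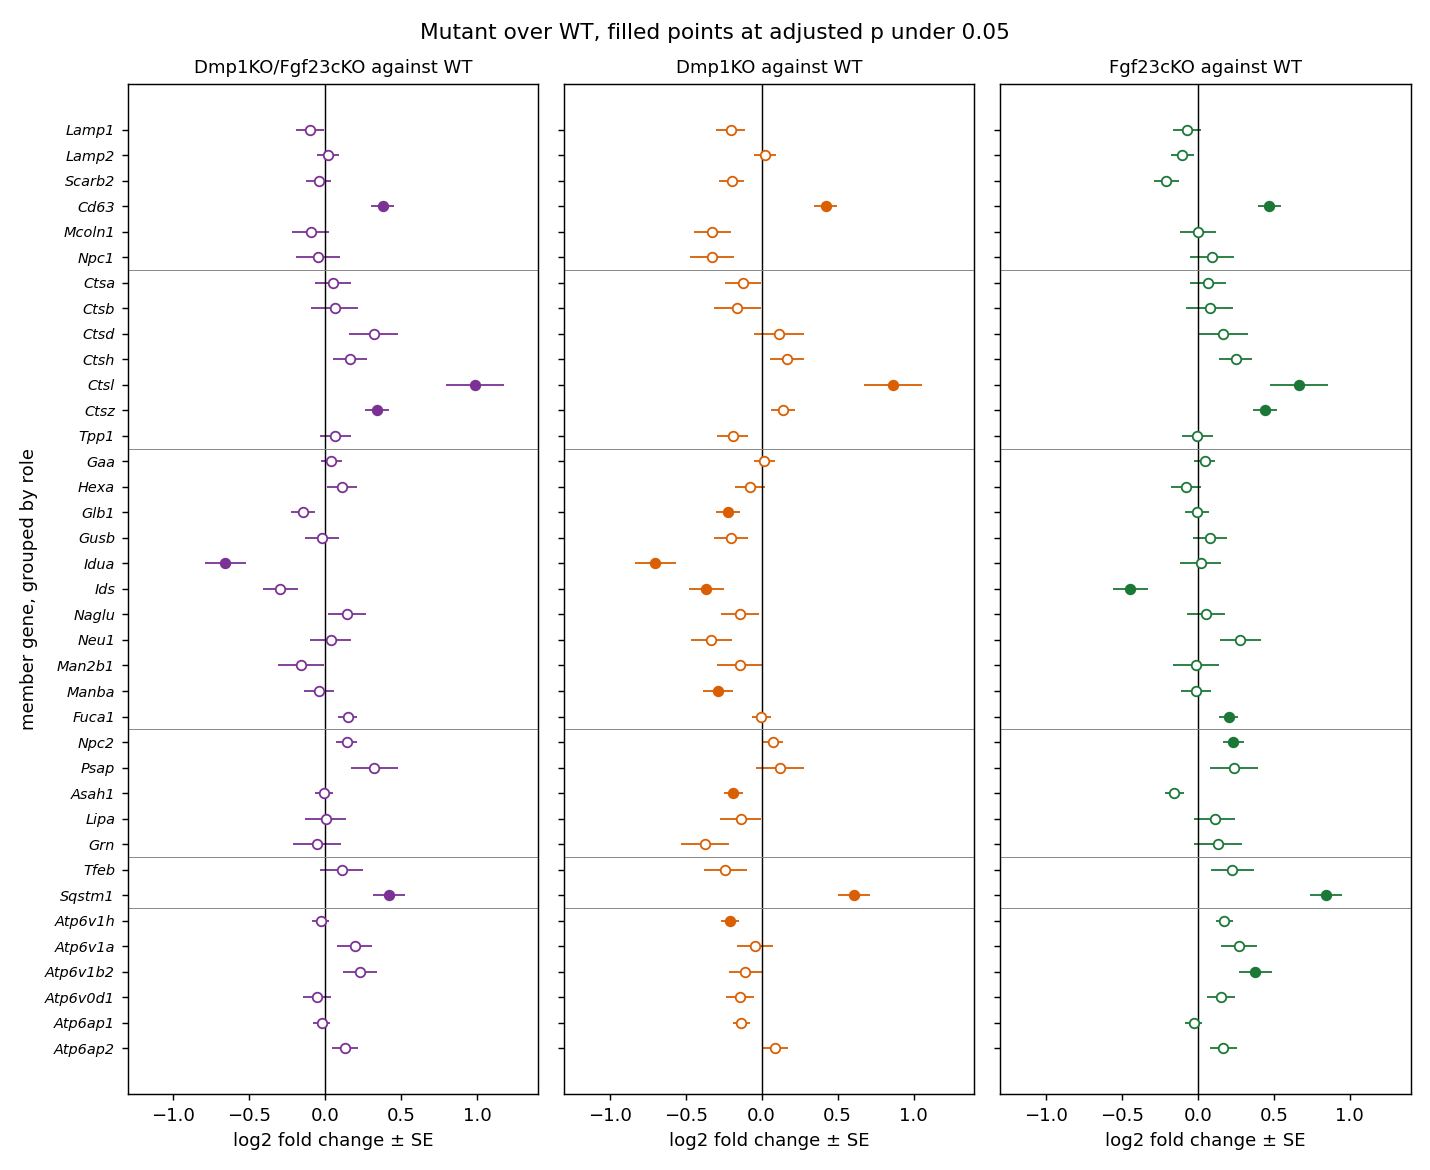
Log2 fold change over WT (points) with its standard error (bars) for the 37 members in the 3 mutants, grouped by role, with filled points at an adjusted p under 0.05. Sqstm1, Cd63 and Ctsl are filled and to the right of 0 in every panel, and Idua is filled to the left in the panels of both Dmp1-null genotypes.

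Sqstm1, which encodes p62, the receptor that brings ubiquitinated cargo into autophagosomes and that the lysosome itself degrades, had the smallest adjusted p of the 37 in both Dmp1KO and Fgf23cKO cultures. It had 610.5, 664, 641 and 638 CPM in Dmp1KO/Fgf23cKO libraries 1 to 4. In Dmp1KO libraries it had 804, 711, 722 and 679 CPM, and in Fgf23cKO libraries 1006, 707, 767 and 959 CPM, against 459, 516, 481 and 458 CPM in WT libraries. Every mutant library was above every WT library, and the Dmp1KO/Fgf23cKO libraries were all below those of each other mutant genotype. Sqstm1 rose 1.52-fold in Dmp1KO (log2 0.61 ± 0.10 SE, edgeR adjusted p = 0.000785), 1.8-fold in Fgf23cKO (log2 0.85 ± 0.11, adjusted p = 0.000392) and 1.33-fold in Dmp1KO/Fgf23cKO cultures (log2 0.42 ± 0.10, adjusted p = 0.0185). Leaving out WT library 1, WT library 4 or Dmp1KO/Fgf23cKO libraries 3 and 4 ended the last of these calls (adjusted p = 0.0533, 0.0635 and 0.0805). The gene lies at chr11:50200152-50210820 (GRCm38.p6).

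Tfeb, the master transcription factor of lysosomal genes, did not pass the test in any mutant. It had 21.3, 24.4, 19.8 and 19.4 CPM in Dmp1KO/Fgf23cKO, 21.2, 16.6, 14.4 and 14.7 CPM in Dmp1KO, and 30.0, 20.1, 20.4 and 21.7 CPM in Fgf23cKO libraries, against 20.5, 18, 19.5 and 20.8 CPM in WT libraries. The mutants' ranges overlapped that of WT, and library 1 was the highest of its genotype in both Dmp1KO and Fgf23cKO cultures. The log2 fold change was 0.11 ± 0.14 in Dmp1KO/Fgf23cKO, -0.24 ± 0.14 in Dmp1KO and 0.23 ± 0.14 in Fgf23cKO cultures (SE). Without Dmp1KO library 1, Tfeb was called lower in Dmp1KO cultures.

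Of the 6 lysosomal membrane genes, only Cd63 passed the test, and it rose in every mutant, while at an unadjusted p under 0.05 Lamp1, Npc1, Scarb2 and Mcoln1 were lower in Dmp1KO cultures (22.4% of all genes were) and DESeq2 called Mcoln1 lower there. Cd63 encodes a tetraspanin of late endosomes, lysosomes and exosomes (chr10:128896231-128912822). It had 466, 405, 451 and 474 CPM in Dmp1KO/Fgf23cKO, 507, 438, 462 and 443 CPM in Dmp1KO, and 450.3, 478, 488 and 498 CPM in Fgf23cKO libraries, against 379.7, 336, 335 and 330.0 CPM in WT libraries. No mutant library overlapped WT. Cd63 rose 1.3-fold in Dmp1KO/Fgf23cKO (log2 0.38 ± 0.08 SE, adjusted p = 0.00594), 1.34-fold in Dmp1KO (log2 0.42 ± 0.08, adjusted p = 0.00107) and 1.39-fold in Fgf23cKO cultures (log2 0.47 ± 0.08, adjusted p = 0.00179). These 3 calls held in all 24 alternative settings.

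The most abundant lysosomal membrane glycoprotein did not follow Cd63. Lamp1 had 1145, 1183, 959.8 and 1030.0 CPM in Dmp1KO/Fgf23cKO, 1152, 990.5, 956 and 927 CPM in Dmp1KO, and 1213, 1109, 1043 and 1044 CPM in Fgf23cKO libraries, against 1133, 1163, 1189 and 1151 CPM in WT libraries. All 3 mutant ranges reached into or across the WT range. Lamp1 gave log2 fold changes of -0.10 ± 0.09, -0.20 ± 0.09 and -0.07 ± 0.09 (SE) in Dmp1KO/Fgf23cKO, Dmp1KO and Fgf23cKO cultures. Mcoln1, the lysosomal calcium channel TRPML1, lay just outside the threshold in Dmp1KO cultures (log2 -0.33 ± 0.12, adjusted p = 0.0504), while Lamp2, the cholesterol exporter Npc1 and the glucocerebrosidase receptor Scarb2 passed in no mutant.

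Among the 7 protease genes, with all libraries in the fit, Ctsl and Ctsz rose and none fell in any mutant, by edgeR, by DESeq2 or at an unadjusted p under 0.05. Ctsl encodes cathepsin L, a cysteine endopeptidase (chr13:64361890-64370772). It had 307, 397, 583 and 606 CPM in Dmp1KO/Fgf23cKO, 561, 376, 419 and 386 CPM in Dmp1KO, and 409, 372, 364 and 372 CPM in Fgf23cKO libraries, against 215, 295, 234 and 211 CPM in WT libraries. All 12 mutant libraries were above the highest WT library, with the widest spread in the compound mutant, where libraries 3 and 4 were the higher pair. Ctsl rose 1.98-fold in Dmp1KO/Fgf23cKO (log2 0.99 ± 0.19 SE, adjusted p = 0.00481), 1.82-fold in Dmp1KO (log2 0.87 ± 0.19, adjusted p = 0.00376) and 1.59-fold in Fgf23cKO cultures (log2 0.67 ± 0.19, adjusted p = 0.0339). The compound call was lost without Dmp1KO/Fgf23cKO libraries 3 and 4 (log2 0.57, adjusted p = 0.0683), and the Fgf23cKO call was lost without any 1 of the 4 Fgf23cKO libraries or of WT libraries 1, 3 and 4 (adjusted p up to 0.104), and without Dmp1KO library 1 and Fgf23cKO library 1 together.

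Ctsz, the carboxypeptidase cathepsin Z (chr2:174427494-174439039), rose in both Fgf23-deleted genotypes. It had 374, 385, 348 and 378 CPM in Dmp1KO/Fgf23cKO, 385, 308, 306 and 293 CPM in Dmp1KO, and 412, 389.7, 391 and 399 CPM in Fgf23cKO libraries, against 290.5, 298, 300.2 and 285 CPM in WT libraries. The Fgf23-deleted libraries were all above WT, and the Dmp1KO range overlapped it. Ctsz rose 1.27-fold in Dmp1KO/Fgf23cKO (log2 0.34 ± 0.08 SE, adjusted p = 0.0129) and 1.36-fold in Fgf23cKO cultures (log2 0.44 ± 0.08, adjusted p = 0.00293), and in Dmp1KO cultures its log2 fold change was 0.14 ± 0.08 (adjusted p = 0.181). Both calls held in all 24 alternatives.

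The abundant cathepsin Ctsd had 4638, 5529, 4606 and 5360.2 CPM in Dmp1KO/Fgf23cKO, 5951, 4159, 3739.8 and 3639 CPM in Dmp1KO, and 5612, 4757, 3770.3 and 4024 CPM in Fgf23cKO libraries, against 3797, 4343, 4046 and 3969 CPM in WT libraries. Only the compound mutant's range lay clear of WT. The log2 fold changes of Ctsd were 0.32 ± 0.16, 0.11 ± 0.16 and 0.17 ± 0.16 (SE) in Dmp1KO/Fgf23cKO, Dmp1KO and Fgf23cKO cultures, and none passed. Ctsa, the protective protein of neuraminidase and beta-galactosidase, Ctsb, Ctsh and the tripeptidyl peptidase Tpp1 also passed in no mutant. Without Dmp1KO library 1, Ctsb and Tpp1 were called lower in Dmp1KO cultures, and Ctsa as well when Fgf23cKO library 1 was also left out.

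**Figure D3:**
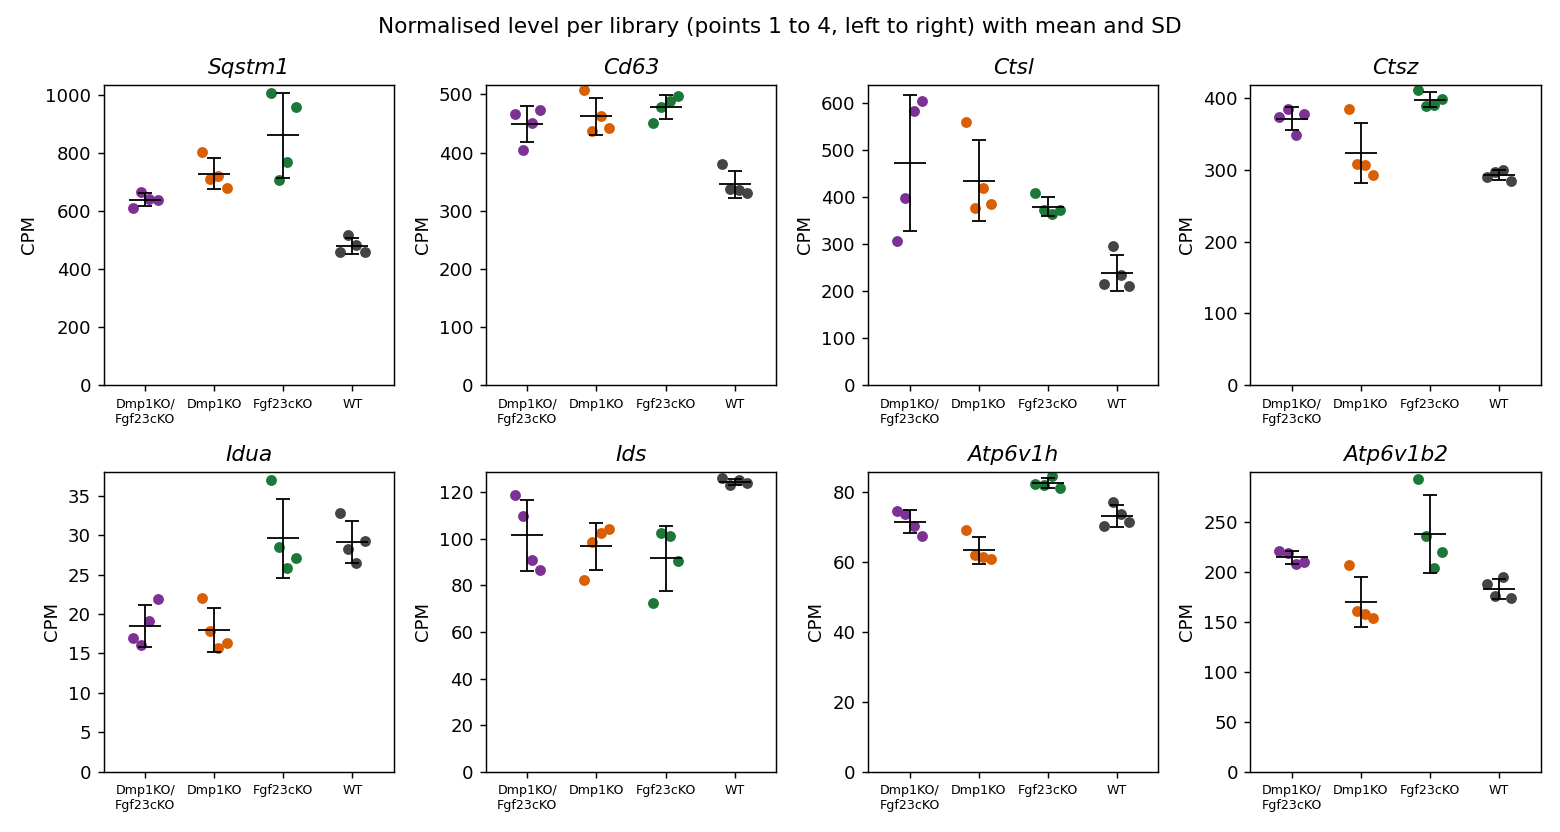
Normalised level in CPM (axes from 0) of 8 members in each library, libraries 1 to 4 from left to right within a genotype, with the mean (horizontal mark) and SD (bar) of 4 libraries. Sqstm1, Cd63 and Ctsl are higher than WT in all 12 mutant libraries, and Idua is lower in the 8 Dmp1-null libraries.

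Of the 11 glycosidase and glycosaminoglycan genes, 4 fell in Dmp1KO cultures (36.4%, against 15.8% of all tested genes) and none rose by edgeR, with a median log2 fold change of -0.20. Of these 4 calls only that of Idua held in all 24 alternatives, and those of Ids, Manba and Glb1 were lost in 5, 5 and 9 of them. At an unadjusted p under 0.05 no gene of this group was higher there either, and DESeq2 called none higher. Idua and Ids encode the lysosomal enzymes that act in turn on heparan and dermatan sulfate. Idua (alpha-L-iduronidase, chr5:108660331-108685446) had 16.9, 16.1, 19.1 and 21.9 CPM in Dmp1KO/Fgf23cKO, 22, 17.9, 15.7 and 16.3 CPM in Dmp1KO, and 37, 28.5, 25.8 and 27.1 CPM in Fgf23cKO libraries, against 32.8, 28.2, 26.5 and 29.3 CPM in WT libraries. The 8 Dmp1-null libraries were all below the lowest WT library, while the Fgf23cKO libraries spanned the WT range. Idua fell to 0.633-fold in Dmp1KO/Fgf23cKO (log2 -0.66 ± 0.13 SE, adjusted p = 0.00624) and to 0.616-fold in Dmp1KO cultures (log2 -0.70 ± 0.13, adjusted p = 0.00159), and its log2 fold change in Fgf23cKO cultures was 0.02 ± 0.13. The calls against WT held in all 24 alternatives.

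Ids (iduronate 2-sulfatase, chrX:70343069-70385834) had 119, 109.9, 90.7 and 86.5 CPM in Dmp1KO/Fgf23cKO, 82.2, 98.6, 102 and 104 CPM in Dmp1KO, and 72.5, 102, 101 and 90.3 CPM in Fgf23cKO libraries, against 126, 123, 125 and 124 CPM in WT libraries. Every mutant library was below every WT library, and the WT libraries lay close together. Ids fell to 0.777-fold in Dmp1KO (log2 -0.36 ± 0.12 SE, adjusted p = 0.0269) and to 0.736-fold in Fgf23cKO cultures (log2 -0.44 ± 0.12, adjusted p = 0.0237), and in Dmp1KO/Fgf23cKO cultures it had a log2 fold change of -0.30 ± 0.12 (adjusted p = 0.113). Both calls were lost without WT library 1, 3 or 4. The Dmp1KO call was also lost without Dmp1KO library 1 or 2 (adjusted p up to 0.0707), and the Fgf23cKO call without Fgf23cKO library 1 or 4 (adjusted p up to 0.0621).

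Glb1 (beta-galactosidase) and Manba (beta-mannosidase) also fell in Dmp1KO cultures. Glb1 averaged 123 ± 10.2 CPM in Dmp1KO and 144 ± 5.05 CPM in WT cultures (log2 -0.22 ± 0.08 SE, adjusted p = 0.0419), and Manba averaged 34 ± 4.53 and 41.5 ± 2.39 CPM in the same genotypes (SD, n = 4 each, log2 -0.29 ± 0.10, adjusted p = 0.0346). The Dmp1KO libraries of Glb1 lay just below WT, at 114 to 137 CPM against 137 to 149.7 CPM, and those of Manba overlapped it. The Glb1 call was lost in 9 of 24 alternatives, among them without any 1 WT library and without Dmp1KO library 2, 3 or 4 (adjusted p up to 0.117). The Manba call was lost without WT library 1, 2 or 3 or Dmp1KO library 3 or 4 (adjusted p up to 0.108). Fuca1 (alpha-fucosidase) rose slightly in Fgf23cKO cultures (log2 0.20 ± 0.06, adjusted p = 0.0462), at 93.1 ± 4.76 CPM in Fgf23cKO against 80.9 ± 2.41 CPM in WT, and this call was lost in 13 of 24 alternatives, among them without any 1 WT library and without Fgf23cKO library 1, 2 or 3 (adjusted p up to 0.132). The acid glucosidase Gaa, Hexa, Gusb, Naglu, Man2b1 and the sialidase Neu1 passed in no mutant. Neu1 was called lower in Dmp1KO cultures in 6 alternatives, and Gusb in 2.

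Among the 5 lipid-handling and activator genes 1 fell in Dmp1KO cultures (20%, against 15.8% of all tested genes). In Fgf23cKO cultures 1 rose (20%, against 6.68% of all). Asah1, the acid ceramidase gene, had 276, 295, 262 and 270.0 CPM in Dmp1KO/Fgf23cKO, 241, 262, 236 and 237 CPM in Dmp1KO, and 246, 253, 239 and 261 CPM in Fgf23cKO libraries, against 265, 286, 284 and 276 CPM in WT libraries. Both single mutants lay below WT without overlap and the compound mutant spanned it, and the fall in Dmp1KO cultures passed (log2 -0.19 ± 0.06 SE, adjusted p = 0.0303). Its call was lost without Dmp1KO library 1, 3 or 4 or WT library 2, 3 or 4 (adjusted p up to 0.0816). Npc2, the luminal cholesterol carrier that hands cholesterol to NPC1, had 419.5, 454, 386 and 427 CPM in Dmp1KO/Fgf23cKO, 389, 413, 422 and 388 CPM in Dmp1KO, and 429, 476, 454 and 444 CPM in Fgf23cKO libraries, against 376, 389, 396 and 371 CPM in WT libraries. Only the Fgf23cKO libraries were all above WT (log2 0.23 ± 0.07, adjusted p = 0.0335). Its call was lost without any 1 WT library or Fgf23cKO library 2, 3 or 4, and with no filter on low counts (adjusted p up to 0.104). Psap, the acid lipase gene Lipa and Grn, the progranulin gene, passed in no mutant. Grn was at 493 to 909 CPM in Dmp1KO/Fgf23cKO, 492 to 641 CPM in Dmp1KO and 669 to 920.5 CPM in Fgf23cKO libraries, against 690.2 to 732 CPM in WT libraries. In Dmp1KO cultures 6 alternatives called Grn lower.

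The V-ATPase is built from a cytosolic V1 sector that hydrolyses ATP and a membrane V0 sector that carries protons. Of its 6 members, 1 fell in Dmp1KO cultures (16.7%, near the 15.8% of all tested genes). In Fgf23cKO cultures 1 rose (16.7%, against 6.68% of all). Atp6v1h, the regulatory H subunit of V1 (chr1:5082978-5163213), had 74.5, 73.7, 70.3 and 67.5 CPM in Dmp1KO/Fgf23cKO, 69.2, 62, 61.3 and 60.8 CPM in Dmp1KO, and 82.2, 82, 84.5 and 81.2 CPM in Fgf23cKO libraries, against 70.2, 77.1, 73.6 and 71.3 CPM in WT libraries. The Dmp1KO libraries were all below WT and the Fgf23cKO libraries all above it. The fall in Dmp1KO cultures passed (log2 -0.21 ± 0.06 SE, adjusted p = 0.0135) in all 24 alternatives, and the difference in Fgf23cKO cultures lay just outside the threshold (log2 0.17 ± 0.06, adjusted p = 0.0607).

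Atp6v1b2, a B subunit of V1, rose 1.3-fold in Fgf23cKO cultures (log2 0.38 ± 0.11 SE, adjusted p = 0.0353), with 293, 236, 203 and 219 CPM in Fgf23cKO against 174 to 194 CPM in WT libraries. The call was lost without Fgf23cKO library 1 or 2 or any 1 WT library, and by limma (adjusted p up to 0.104). The catalytic A subunit gene Atp6v1a had 346, 368, 324 and 326 CPM in Dmp1KO/Fgf23cKO, 383, 288, 247 and 241 CPM in Dmp1KO, and 378, 376, 339 and 347 CPM in Fgf23cKO libraries, against 299, 299, 313 and 283 CPM in WT libraries. The Fgf23-deleted libraries were all above WT and Dmp1KO spanned it, but no difference passed (log2 0.19 ± 0.12 in Dmp1KO/Fgf23cKO, -0.04 ± 0.12 in Dmp1KO and 0.27 ± 0.12 in Fgf23cKO cultures). Atp6v0d1 of the V0 sector and the accessory subunit genes Atp6ap1 and Atp6ap2 (the prorenin receptor gene) passed in no mutant. Atp6ap1 was at 253 to 269 CPM in Dmp1KO against 283 to 290 CPM in WT libraries, and 3 alternatives, DESeq2 among them, called it lower.

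The libraries of 1 genotype differed in many members at a time. Dmp1KO library 1 was the highest of its genotype for 31 of 37 members and Fgf23cKO library 1 for 26 of 37. The share of all genes for which these libraries were the highest was not computed. Ctsb had 4429 CPM in Dmp1KO library 1 and 2769 to 2913 CPM in the other Dmp1KO libraries, and Psap had 3709 CPM and 2096 to 2380.0 CPM. The summed level of the 37 members was 24261 CPM in Dmp1KO library 1 against 16631 to 18058 CPM in the other 3, and 24453 CPM in Fgf23cKO library 1 against 18912 to 21624 CPM. Without Dmp1KO library 1, 13 members fell in Dmp1KO cultures (35.1%, against 16.1% of all genes), among them Lamp1, Ctsb, Npc1, Lipa and Tfeb, while Sqstm1, Cd63 and Ctsl still rose. Without Dmp1KO library 1 and Fgf23cKO library 1 together, an alternative chosen after the data were seen, 18 fell (48.6%, against 16.8% of all). Both libraries stood out by the members' own values. Leaving out Dmp1KO library 1, alone or with Fgf23cKO library 1, therefore lowers most members' Dmp1KO mean by construction. The share of all genes is not a like background for these counts. Leaving out 1 WT library left 2 (without WT library 3) or 3 that fell, against 11.1% to 12.9% of all genes, and leaving out Dmp1KO library 3 or 4 left 3 (8.11%, against 10.6% and 11.5% of all).

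The summed level of macrophage markers was also the highest of its genotype in each of these libraries, although fewer of the markers shared the pattern. Over all libraries it was highest in Dmp1KO/Fgf23cKO library 2, at 14788 CPM. All 16 were detected, with Dmp1KO library 1 the highest of its genotype for 9 of 16 and Fgf23cKO library 1 for 8 of 16. Their summed level was 13188 CPM in Dmp1KO library 1 against 8736 to 9031 CPM in the other Dmp1KO libraries, and 14760 CPM in Fgf23cKO library 1 against 10185 to 12245 CPM. Lysozyme (Lyz2) took a large part of these sums, at 7552 CPM in Dmp1KO library 1 against 3907 to 4273 CPM in the others. Without Lyz2 the sum was 5636 CPM in Dmp1KO library 1 against 4536 to 5056 CPM in the others, and 6583 CPM in Fgf23cKO library 1 against 5642 to 6200.2 CPM. Over genotypes the sum of all 16 ranged from 7775 to 14788 CPM in Dmp1KO/Fgf23cKO, 8736 to 13188 CPM in Dmp1KO and 10185 to 14760 CPM in Fgf23cKO cultures, against 10793 to 11975 CPM in WT cultures. Of the 16, 4 fell in Dmp1KO cultures (25%, against 15.8% of all), namely Vsig4, Csf1r, Adgre1 and Mrc1. Only Cd14 rose in Fgf23cKO cultures (6.25%, near the 6.68% of all). Csf1r, the macrophage growth factor receptor gene, had 692 to 773 CPM in Dmp1KO and 1102 to 1195 CPM in WT libraries and did not share the high value of library 1. The part of macrophages in the members' differences was not tested.

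Osteoclasts are also known to be rich in these transcripts. The summed level of 12 osteoclast markers was 745 to 1318 CPM in Dmp1KO/Fgf23cKO, 519 to 776 CPM in Dmp1KO and 723 to 1112 CPM in Fgf23cKO cultures, against 642 to 1023 CPM in WT cultures. Of the 12, 11 had a log2 fold change below 0 in Dmp1KO against WT (median -1.18), and all 12 had one above 0 in Dmp1KO/Fgf23cKO against Dmp1KO (median 1.27), where edgeR called none and 8 were higher and none lower at an unadjusted p under 0.05. In the same comparisons 26 of the 37 members were below 0 and 32 above 0. Their medians were -0.14 and 0.17, against -0.02 and 0.01 over all genes, whose share on each side of 0 was not computed. The Dmp1KO libraries enter both comparisons with opposite sign, so low values there move both counts at once. The osteoclast list itself holds lysosomal and V-ATPase genes (Acp5, Ctsk, Atp6v0d2 and Tcirg1). Acp5 was at 10.8 to 33.3 CPM in Dmp1KO and 28.6 to 128 CPM in WT libraries (adjusted p = 0.0512), Ctsk at 127 to 172 and 138 to 242 CPM in the same genotypes, and of the 12 only Ocstamp passed, falling in Dmp1KO cultures. Calcr and Ocstamp, which define the mature osteoclast, stayed under 3 CPM in all 16 libraries. Osteoblast markers took far more of the RNA. Their summed levels were 54795 to 203617 CPM in Dmp1KO/Fgf23cKO, 128931 to 139848 CPM in Dmp1KO, 83672 to 100682 CPM in Fgf23cKO and 51134 to 83099.9 CPM in WT cultures. Of these markers, 6 of 12 rose in Dmp1KO cultures (50%, against 18% of all tested genes). Adipocyte markers (10 genes) had a summed level of 581 and 627 CPM in Dmp1KO/Fgf23cKO libraries 1 and 2 and 1324 and 1266 CPM in libraries 3 and 4, 1341 CPM in Dmp1KO library 1 and 723 to 789 CPM in the other Dmp1KO libraries, and 550.2 to 679 CPM in Fgf23cKO, against 493 to 628 CPM in WT libraries. Lpl, the lipoprotein lipase gene, was the most abundant of them, and Adipoq, the defining one, stayed at or under 18.1 CPM in all 16 libraries. The part of osteoclasts, osteoblasts and adipocytes in the members' differences was not tested.

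**Figure D4:**
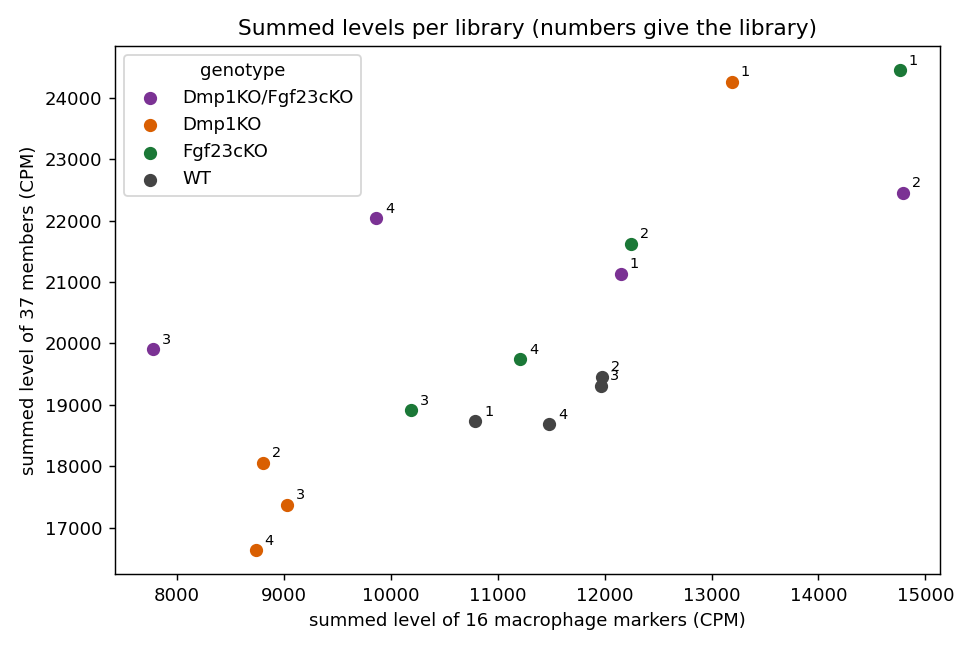
Summed level of the 37 members against the summed level of 16 macrophage markers, both in CPM, with 1 point per library coloured by genotype and numbered by library. Dmp1KO library 1 and Fgf23cKO library 1 have the highest summed levels of the members (24261 and 24453 CPM), and Dmp1KO libraries 2 to 4 the lowest, at 16631 to 18058 CPM.

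Deleting Fgf23 from Dmp1-null cultures was the next question. Between Dmp1KO/Fgf23cKO and Dmp1KO cultures edgeR called no member in either direction (background 0.00609% of all tested genes higher and 0.0122% lower, 3 genes in all), and DESeq2 called none. At an unadjusted p under 0.05, 10 members were higher in Dmp1KO/Fgf23cKO and none lower (all genes 7.75% higher and 6.03% lower at that threshold), with a median log2 fold change of 0.17 over the 37 and 0.01 over all genes. Overlap between these genotypes was examined for the members only, without a share of all genes. Naglu, Sqstm1 and Atp6v1b2 did not overlap, with Sqstm1 lower in the compound mutant and Naglu and Atp6v1b2 higher. This comparison depends on the libraries that stand apart: without Dmp1KO/Fgf23cKO libraries 3 and 4, 9 members rose (24.3%, against 12.9% of all genes), and 9 rose without Dmp1KO library 1 and Fgf23cKO library 1, where 1.4% of all genes did. Dmp1KO library 1 was singled out by its high member values, so leaving it out raises most members' difference here by construction. The 1.4% is therefore not a like background. Atp6v1h, Atp6v1b2 and Tpp1 were in both sets of 9.

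The libraries of the compound mutant fell into pairs for many members. Libraries 1 and 2 were both above 3 and 4 for 21 of 37 members, among them Grn (783 and 909 CPM against 493 and 573 CPM), Npc1, Neu1 and all 6 V-ATPase genes. For Ctsl, Ctsh, Idua and Psap libraries 1 and 2 were both below 3 and 4. The share of all genes that split in either way was not computed. The same pairs separated on the first principal component of all genes and in the summed macrophage markers (12152 and 14788 CPM against 7775 and 9867 CPM) and osteoblast markers (61023 and 54795 CPM against 203617 and 149099 CPM), and the part of either in the members' values was not tested.

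Dmp1KO/Fgf23cKO and Fgf23cKO cultures both carried the Fgf23 deletion and differed in Dmp1, and all 37 members were tested between them. Whether a difference came directly from loss of DMP1 was not tested. Among Fgf23-deleted cultures, Idua was lower in those that also lacked DMP1, by a call that depended on the setting. Between Dmp1KO/Fgf23cKO and Fgf23cKO cultures it was the only member called (log2 -0.68 ± 0.13 SE, edgeR adjusted p = 0.0262, background 0.487% of all genes lower and 0.779% higher). At an unadjusted p under 0.05, 1 member, Asah1, was higher (11.2% of all genes), and DESeq2 called none higher and 3 lower (2.67% of all genes lower), adding Sqstm1 and Atp6v1h to Idua. The Idua ranges of 16.1 to 21.9 CPM in Dmp1KO/Fgf23cKO and 25.8 to 37 CPM in Fgf23cKO libraries did not overlap, but the call was lost without any 1 Fgf23cKO library or without Dmp1KO/Fgf23cKO library 3 or 4 (adjusted p up to 0.064), and with only the 2 genotypes in the fit (adjusted p = 0.175). Sqstm1 (log2 -0.43 ± 0.10, adjusted p = 0.0564) and Atp6v1h (log2 -0.21 ± 0.06, adjusted p = 0.0818) were the nearest outside the threshold. Without Dmp1KO/Fgf23cKO libraries 1 and 2, 7 members fell (Glb1, Idua, Neu1, Grn, Sqstm1, Atp6v1h and Atp6v0d1) and Ctsl rose. The 7 are 18.9% of the members, near the 13.9% of all genes that fell in that setting, where 13.7% of all rose.

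The interaction tested whether the effect of deleting Fgf23 differed between Dmp1-null and Dmp1-intact cultures, and 3 members passed (background 2.9% of all genes positive and 4.72% negative). Sqstm1 was higher in Fgf23cKO than in WT cultures by log2 0.85, whereas the difference between Dmp1KO/Fgf23cKO and Dmp1KO cultures was log2 -0.19 ± 0.10, so its interaction was -1.04 ± 0.15 (SE, adjusted p = 0.00226). Cd63 gave -0.51 ± 0.11 (adjusted p = 0.0124), with log2 0.47 between Fgf23cKO and WT and -0.04 between Dmp1KO/Fgf23cKO and Dmp1KO cultures. Both held in every alternative. Asah1 gave 0.33 ± 0.09 (adjusted p = 0.0337), with 276 ± 14.1 CPM in Dmp1KO/Fgf23cKO, 244 ± 12.5 CPM in Dmp1KO, 249.6 ± 9.77 CPM in Fgf23cKO and 278 ± 9.46 CPM in WT cultures (SD, n = 4 each), and was lost in 12 of 23 alternatives.

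**Figure D5:**
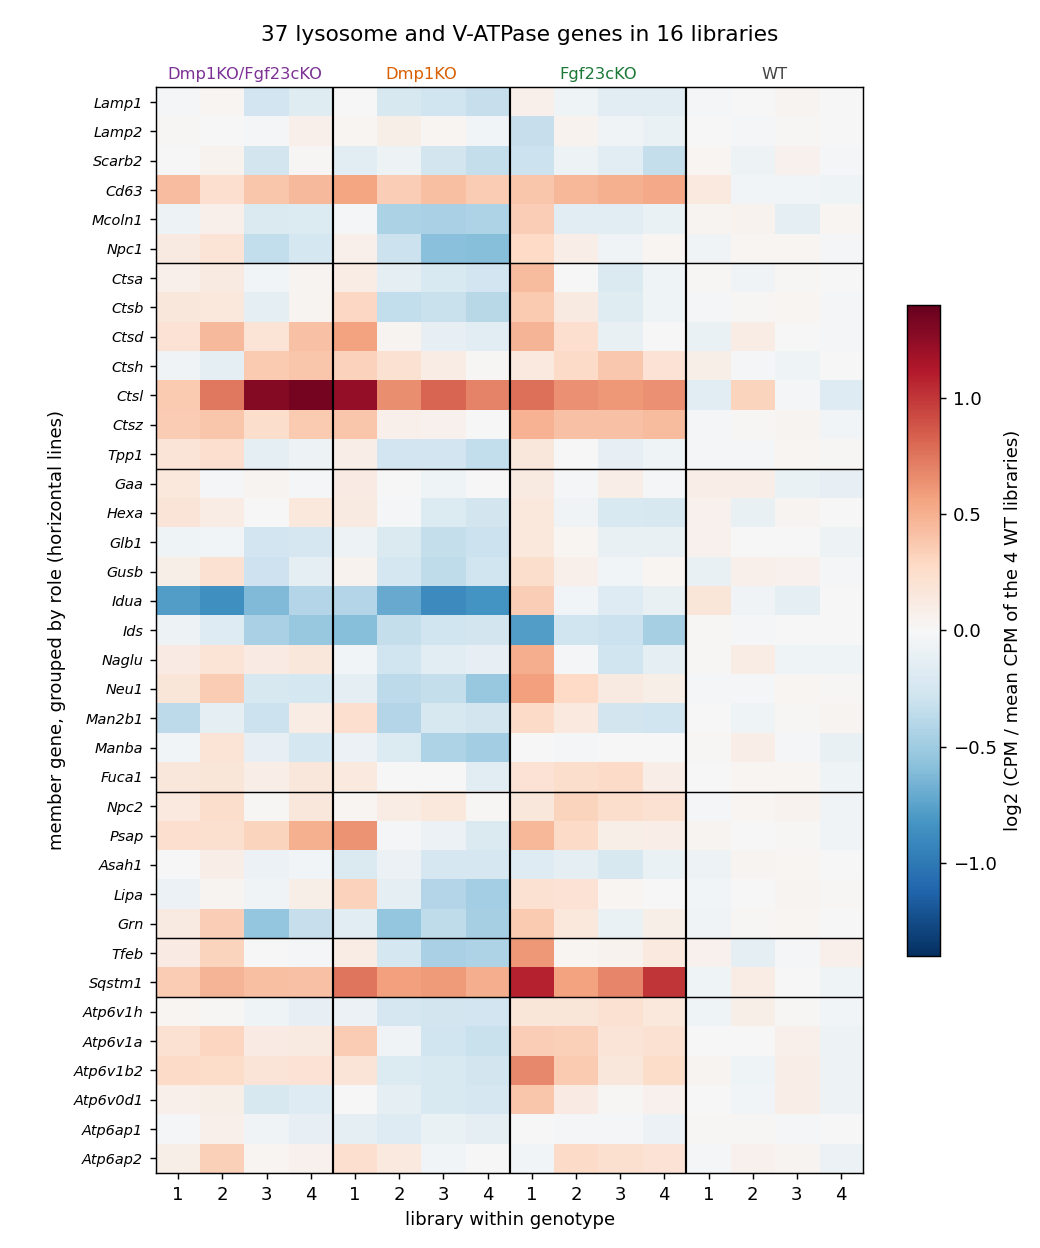
Log2 of each library's CPM over the mean of the 4 WT libraries for the 37 members (rows, by role) in the 16 libraries (columns), red above and blue below WT. The rows of Sqstm1, Cd63 and Ctsl are red in all mutant libraries, Idua is blue in the 8 Dmp1-null libraries, and Dmp1KO libraries 2 to 4 are bluer than library 1 in most other rows.

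The rest of the lysosomal system was read from lists of further genes. Of 16 tested V-ATPase subunits outside the 37, 1 rose and 1 fell in Dmp1KO cultures (6.25% each, against 18% and 15.8% of all tested genes), with a median log2 fold change of -0.07. In Fgf23cKO cultures 3 rose (18.8%, against 6.68% of all), with a median of 0.23. Atp6v1g1, a stalk subunit of V1, rose in all 3 mutants, by log2 0.43 ± 0.07 SE in Dmp1KO/Fgf23cKO, 0.46 ± 0.07 in Dmp1KO and 0.40 ± 0.07 in Fgf23cKO cultures (edgeR adjusted p = 0.00222, 0.000519 and 0.00364). Atp6v1f and Atp6v1d, also of V1, rose in Fgf23cKO, and Atp6v1g2 fell in Dmp1KO cultures.

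Of 30 tested further hydrolases and activators, 9 fell (30%, against 15.8% of all) and 1 rose (3.33%, against 18%) in Dmp1KO cultures, with a median log2 fold change of -0.24. The falls were led by Arsb, the sulfatase of dermatan and chondroitin sulfate (0.5-fold, adjusted p = 0.00285), the acid phosphatase gene Acp2 and the cathepsin gene Ctso. Arsb also fell in Fgf23cKO cultures (log2 -0.79 ± 0.21, adjusted p = 0.0245), as did Ctbs, a chitobiase. Of 18 further membrane and transport genes, 5 fell (27.8%, against 15.8% of all) and 1 rose (5.56%, against 18%) in Dmp1KO cultures, where Abcb9, Ostm1 and the channel gene Tpcn2 fell. Slc38a9, the lysosomal arginine sensor, fell in Fgf23cKO cultures (log2 -0.58 ± 0.10), where Litaf and Tmem192 rose, and it was higher in Dmp1KO/Fgf23cKO than in Fgf23cKO cultures (log2 0.51 ± 0.10, adjusted p = 0.0236). In Dmp1KO/Fgf23cKO cultures Ctso and Abcb9 fell and Aga rose. Of 10 genes of mannose 6-phosphate tagging and sorting only Sort1 passed, falling in Dmp1KO cultures (10% of the list, against 15.8% of all).

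Of 19 MiT/TFE, mTORC1 and Ragulator genes, 4 rose (21.1%, against 18% of all tested genes) and 2 fell (10.5%, against 15.8%) in Dmp1KO cultures, so their share of calls there was near that of all genes. In Fgf23cKO and in Dmp1KO/Fgf23cKO cultures 3 rose (15.8% each, against 6.68% and 7.72% of all). Lamtor2, a subunit of the Ragulator complex that anchors mTORC1 to the lysosome, rose in all 3 mutants (log2 0.42 ± 0.08 SE in Dmp1KO/Fgf23cKO, 0.51 ± 0.08 in Dmp1KO and 0.28 ± 0.08 in Fgf23cKO). Tsc2, a brake on mTORC1, and Tfec, a relative of Tfeb, fell in Dmp1KO cultures, and the GTPase genes Rragc and Rragd rose in Fgf23cKO cultures, as did Rragd and Lamtor5 in Dmp1KO/Fgf23cKO cultures. Of 21 autophagy genes, 5 rose (23.8%, against 18% of all) and 1 fell (4.76%, against 15.8%) in Dmp1KO cultures, with Atg3 and the receptor gene Optn rising and Uvrag falling. Map1lc3b, which encodes the autophagosome protein LC3B, and Optn rose in Fgf23cKO cultures (9.52% of the list, against 6.68% of all), and Atg3 and Tax1bp1 rose and Uvrag fell in Dmp1KO/Fgf23cKO cultures.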

How the data were processed

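BMSC libraries (TruSeq total RNA, Illumina NovaSeq paired reads) were, per the study's methods, mapped to the mouse genome (mm10 per the labels) and filtered in StrandNGS. The software version, the gene annotation and whether strand was used were not given in the sources used here, so reads of overlapping antisense genes cannot be told apart. The authors deposited estimated counts per gene and library (33.4% of values carry a fraction). Deposited DESeq-normalised log2 values, and sheets with the authors' own fold changes and p-values, were not used. Counts were rounded, filtered (edgeR filterByExpr, minimum count 10, minimum total 15), TMM-scaled and fitted in 1 robust quasi-likelihood model over all 16 libraries with a mean per genotype (R 4.3.3, edgeR 4.0.16). P-values were adjusted by Benjamini-Hochberg over 16430 genes, for 6 comparisons, with calls at 0.05. CPM use TMM library sizes. No 2 libraries of 1 genotype agreed within sampling noise (chi-square per gene at least 26.49). Totals of 61.9 to 79.5 M counts limit precision through counting error far less than the spread between libraries does. Alternatives were RLE scaling, no filter, DESeq2 1.42.0, limma 3.58.1 on log2 values, only the 2 genotypes compared, leaving out pairs of libraries, and leaving out each library. The labels give no pairing or batch.

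The 37 members, their roles and the other lists were chosen with earlier results of these data known. Values per library were given for Lamp1, Ctsd, Tfeb and Atp6v1a, and for the 4 called members with the smallest adjusted p in each direction and comparison. Members next to the threshold, defining markers, and up to 3 called genes of each other list and comparison were also named. Ctsb, Psap, Grn and further values were given after their values were seen. Promoter windows, gene positions (RefSeq, GRCm38.p6) and exon lengths (GENCODE vM21) were matched by gene ID or symbol.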

Additional observations from a re-analysis of the deposited data

Results flagged for a closer look

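In each genotype, every member's 4 libraries were examined for a library whose gap to its nearest neighbour was, relative to the group's range, above Dixon's 95% critical value for 4 samples. This held in 13 of 148 sets of 4 (8.78%), where chance alone gives about 1 in 20. Dmp1KO library 1 was set apart and high for Ctsb (4429 CPM), Ctsz (385 CPM), Tpp1 (213 CPM), Atp6v1b2 (207 CPM), Atp6v1h (69.2 CPM) and Mcoln1 (50.0 CPM). Fgf23cKO library 1 was set apart and high for Mcoln1 (64.3 CPM) and Tfeb (30.0 CPM). Elsewhere the library set apart was Fgf23cKO 4 for Atp6ap1 (272 CPM, low), Dmp1KO/Fgf23cKO 2 for Atp6ap2 (129 CPM, high), Dmp1KO/Fgf23cKO 3 for Fuca1 (86.6 CPM, low), WT 1 for Cd63 (379.7 CPM, high) and WT 3 for Mcoln1 (46.3 CPM, low).

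The effect of Fgf23 deletion differed between Dmp1-null and Dmp1-intact cultures for Sqstm1 (interaction -1.04 on the log2 scale), Cd63 (-0.51) and Asah1 (0.33).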

How the results depend on the processing

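No call of a single member reversed direction in any of the 24 alternative settings (23 for the interaction). Without Dmp1KO/Fgf23cKO libraries 1 and 2, the members' median log2 fold change over WT in the compound mutant went from 0.04 to -0.02. The members' median interaction went from 0.08 to -0.001 in that setting. The 3 members that rose in Dmp1KO cultures were 3 in every setting. The 6 that fell there were 11 with only the 2 genotypes compared, 11 without Dmp1KO/Fgf23cKO libraries 1 and 2, and 11 without libraries 3 and 4 (29.7%, against 21.4%, 20.2% and 20% of all genes). They were 18 without Dmp1KO library 1 and Fgf23cKO library 1 together (2796 of 16597 genes), and 2 to 13 when 1 library was left out (1773 to 2928 of all genes). In Fgf23cKO cultures, leaving out 1 library gave 3 to 9 that rose (595 to 1288 of all genes) and 0 to 1 that fell (383 to 927 of all genes). In Dmp1KO/Fgf23cKO cultures 2 rose without libraries 3 and 4, where 529 of 16978 genes rose. Without libraries 1 and 2, 4 fell, where 2945 of 16947 genes fell. Without Dmp1KO library 1 and Fgf23cKO library 1, 2 fell (752 of 16597 genes), and leaving out 1 library gave 1 to 2 that fell (233 to 1068 of all genes). Against Dmp1KO, the compound mutant had 9 higher without its libraries 3 and 4 (2196 of 16978 genes) and 9 higher without Dmp1KO library 1 and Fgf23cKO library 1 (233 of 16597 genes). When 1 library was left out, the compound mutant had 0 to 3 higher (0 to 145 of all genes). Against Fgf23cKO it had 1 higher and 7 lower without its libraries 1 and 2, 3 lower by DESeq2, 0 lower with only the 2 genotypes compared (0 of all genes), and 0 to 3 lower when 1 library was left out (7 to 532 of all genes). The interaction had 0 positive members with no filter, 3 by DESeq2 and 0 without compound libraries 1 and 2 (334, 966 and 374 of all genes). It had 0 to 3 when 1 library was left out (200 to 945 of all genes). Without compound libraries 3 and 4 it had 5 positive and 4 negative members, where 2192 and 2314 of 16978 genes were. Without Dmp1KO library 1 and Fgf23cKO library 1 it had 6 positive members (693 of 16597 genes). Over all tested genes, DESeq2 called 124 higher and 61 lower between the compound mutant and Dmp1KO (edgeR 1 and 2), 618 and 404 between the compound mutant and Fgf23cKO (edgeR 128 and 80), 1199 lower in Fgf23cKO (edgeR 776), 1013 lower in the compound mutant (edgeR 596) and 966 positive interactions (edgeR 477). Without compound libraries 3 and 4, 2196 genes were higher and 2033 lower than in Dmp1KO, and without libraries 1 and 2, 2328 were higher and 2357 lower than in Fgf23cKO. Of the members called, 5 of 9 in Dmp1KO, 3 of 8 in Fgf23cKO, 3 of 5 in Dmp1KO/Fgf23cKO cultures and 2 of 3 in the interaction held in every alternative. Except where fewer libraries entered the fit, the cause was not tested. No paired analysis was possible because the labels give the libraries no replicate numbers.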
